A study of Mus musculus with 16 samples.

Results

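The comparison concerned tumours grown from the MSI (microsatellite instability) line of MC38, a mouse colon carcinoma line of the C57BL/6 strain, and asked whether their transcripts differed with the source of the DNA given to injected dendritic cells. Of 16 libraries in the series, the 8 from MSI tumours were used: 4 from mice whose dendritic cells had received MSI DNA and 4 from mice whose dendritic cells had received DNA of the CIN (chromosomal instability) line. Each source was given in both of 2 forms, micronuclei or free cytosolic DNA, with 2 libraries per source and form, and the form was a covariate of the main test. In all groups C57BL/6 mice carried the tumour in the wall of the descending colon, and the bone marrow derived dendritic cells had been exposed to 2 µg of DNA with Lipofectamine for 30 minutes. Mice received the cells intraperitoneally on days 1, 6 and 12, and the tumour was removed on day 15.

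Per the series description the RNA sequenced was a pool of 3 biological replicates in equal parts. The labels do not say that both libraries of a group were pooled from separate animals, and p-values then measure the spread between libraries, which may be technical. Only 1 line is named for each tumour type, and libraries with untreated dendritic cells were not analysed here. The comparison is therefore of one DNA source with the other, not of DNA with no DNA.

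DNA in the cytosol is bound by the enzyme cGAS, which makes a cyclic dinucleotide that activates the adaptor STING. STING recruits the kinase TBK1, which phosphorylates the transcription factor IRF3 and leads to type I interferon production. In tumours, dendritic cells that sense DNA in this way are known for priming CD8 T cells against tumour antigens. Interferon acts through transcription factors that bind interferon-stimulated response elements in promoters. What was measured here is RNA of the whole tumour, not of the injected dendritic cells.

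The promoters of 4 interferon-induced genes are shown because the type I interferon list is one of the gene groups followed below. Capitals mark matches to GAAANNGAAA, the core of the interferon-stimulated response element, on either strand, with overlapping matches run together. The 4 genes were picked from list members with a match wholly before the gene start, as those of smallest unadjusted p for DNA source. They therefore do not show how common the match is in the list. The sequences are from RefSeq on build GRCm38.p6, read 5′ to 3′ along each gene's strand, at chr5:120777695-120777764 (minus), chr4:156200845-156200926 (minus), chr12:26456533-26456602 (minus) and chr10:128270248-128270315 (plus) in this order.
Oas3: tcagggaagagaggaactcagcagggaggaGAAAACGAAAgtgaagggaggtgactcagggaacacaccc
Isg15: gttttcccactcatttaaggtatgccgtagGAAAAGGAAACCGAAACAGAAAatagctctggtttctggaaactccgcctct
Rsad2: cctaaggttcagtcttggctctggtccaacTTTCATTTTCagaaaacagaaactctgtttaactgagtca
Stat2: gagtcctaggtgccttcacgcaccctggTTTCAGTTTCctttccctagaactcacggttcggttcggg

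The motif occurred in 3.44% of 32851 RefSeq promoter windows of 300 bases (250 before to 50 after the start). Of the 36 type I interferon genes, 26 had a window and 17 of these (65.4%) held the motif. Of the tested genes with a window, 480 of 12250 (3.92%) held it. A match describes these letters only.

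The MSI tumour libraries held 11880546 to 15197535 counts with MSI DNA and 15319093 to 16257338 with CIN DNA, so the MSI DNA libraries were all the shallower ones (13860409 ± 1591555 against 15826441 ± 456570 counts, SD, n = 4 each, two-sided exact permutation p = 0.0286, the smallest that 70 arrangements allow, 0.0572 adjusted over 2 measures). The mitochondrial share was 2.20 ± 0.728% against 2.39 ± 1.08% (exact permutation p = 0.83). Libraries numbered 1 and 2 differed in make-up. The score of 29 colon epithelium genes, their mean log2 CPM (counts scaled by library size), ranged from 4.07 to 6.83 in the replicate 1 libraries and from 7.94 to 8.54 in those of replicate 2. Epcam, an epithelial surface protein, ranged from 64.5 to 1403 CPM, so an epithelial marker was present in every library at very different levels, which does not test the colorectal label itself. Whether these transcripts came from host mucosa or from tumour cells was not tested.

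**Figure D1:**
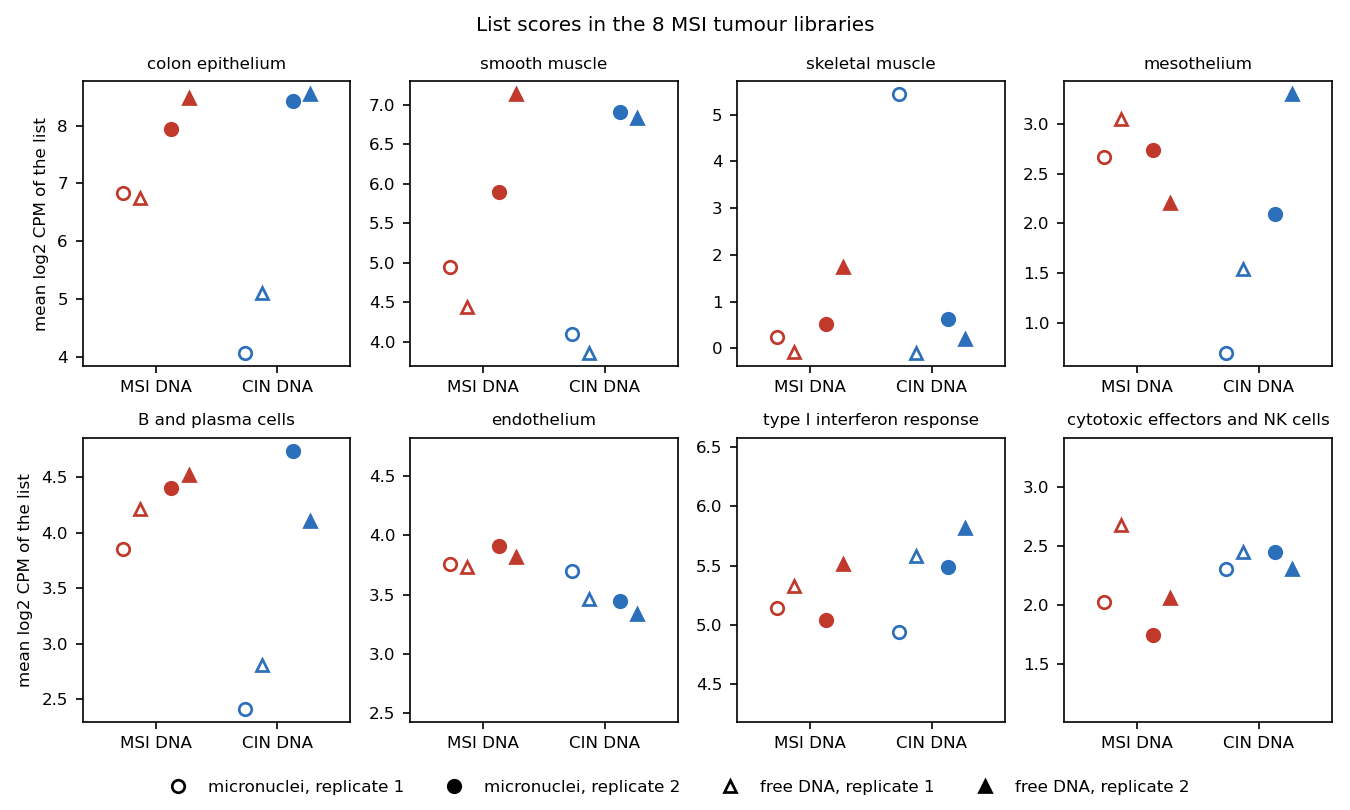
Mean log2 CPM of the tested members of 8 lists in each of the 8 MSI tumour libraries, with MSI DNA in red and CIN DNA in blue, circles for micronuclei, triangles for free DNA, open for replicate 1 and filled for replicate 2. Colon epithelium scores separate by replicate number, and 1 library (CIN DNA micronuclei 1) stands at 5.43 in skeletal muscle.

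No single gene passed the test of DNA source. Of 17783 genes tested with edgeR's quasi-likelihood test and Benjamini-Hochberg adjustment over all genes, 0 (0%) had an adjusted p under 0.05, 97 had an unadjusted p under 0.05, and the smallest adjusted p was 1. The same test gave 0 of 17783 (0%) with micronuclei alone (85 unadjusted), 0 of 17783 (0%) with free DNA alone (59 unadjusted), and 0 of 17783 (0%) for the difference between the forms (68 unadjusted). DESeq2 called 1, 2, 1 and 2 genes in these 4 comparisons. The log2 fold change, MSI DNA minus CIN DNA, was above 0 for 45.1% of genes and below 0 for 54.9%, with a median of -0.02. In the 13866 genes whose mean log2 CPM was 1 or more, the median standard error was 0.22 and the median 95% interval reached 0.53 to either side. A gene at that median precision would need a log2 difference beyond 0.53 for its own unadjusted interval to leave out 0. With no effect on any gene, a calibrated test would put a share of about 0.05 under an unadjusted p of 0.05. The 97 of 17783 were far fewer, so the main test was probably conservative and its 0 calls are weak evidence of no difference. Its fit had no term for library number, so differences between libraries numbered 1 and 2 stayed in these standard errors. With library number as a block, 248 genes had an unadjusted p under 0.05 and 0 were called.

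All 4 MSI DNA libraries lay above all 4 CIN DNA libraries for 75 genes (0.422%) and below for 95 genes (0.534%). From these, the 12 protein-coding genes of smallest unadjusted p in each direction were named (mean log2 CPM 1 or more). Because separation chose them, their separation and their p describe them and test nothing. CPM values below are in the order micronuclei 1, micronuclei 2, free DNA 1, free DNA 2, and intervals are at 95%.

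Among the secreted guidance and matrix genes, Slit3 (chr11:35121224-35708507), which encodes a ligand of Robo receptors, was at 10.4, 12.7, 9.60 and 9.93 CPM with MSI DNA and 4.03, 4.46, 4.70 and 7.87 with CIN DNA. All MSI DNA libraries were higher, by 1.04 ± 0.27 (SE) on the log2 scale, with edgeR's adjusted p = 1 and unadjusted p = 0.00607. Col5a2, a fibrillar collagen chain, was at 83.8, 115, 74.4 and 75.8 CPM against 47.2, 60.6, 63.6 and 64.0. The margin was wide with micronuclei (log2 0.88) and small with free DNA (0.24). Tnc, the matrix glycoprotein tenascin C, was at 134, 148, 119 and 146 CPM against 36.6, 76.2, 42.5 and 120. Its MSI DNA levels were close to one another, and the CIN DNA level in free DNA 2 reached them (log2 1.02 ± 0.38).

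Fibroblast and matrix transcripts as a list leaned to the MSI DNA side without a call. Of 21 tested members 19 were above 0 and 2 below, none was called, and the median was 0.22 against -0.02 over all genes. The score difference was positive in all 4 pairs of libraries matched on form and replicate number (0.06 to 0.46). The median was 0.27 with micronuclei and 0.08 with free DNA, where 10 of 21 were below 0, and it was 0.12 in replicate 1 alone and 0.42 in replicate 2 alone. It was 0.08 without CIN DNA free DNA 2 and 0.13 without MSI DNA micronuclei 2. No member of the list was separated, and Slit3 and Col5a2 were not on it. Its members included Col1a2 at 0.51, Fn1 at 0.32 and Pdgfrb at -0.01. Bulk RNA cannot tell more cells of a type from more RNA per cell, here or in the lists that follow.

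Endothelial genes lay on the MSI DNA side together. All 17 tested members had a fold change above 0 (45.1% of all genes did), with a median of 0.32 and a range from 0.12 to 0.53. None was called, 2 of 17 were separated (0.422% of all genes in that direction), and 4 had an unadjusted p under 0.05. Tie1 (chr4:118471191-118490061), a receptor tyrosine kinase of blood vessels, was at 21.9, 18.8, 19.0 and 19.4 CPM with MSI DNA and 14.9, 13.0, 15.1 and 11.9 with CIN DNA. The groups did not overlap, and the difference was similar with micronuclei (log2 0.55) and free DNA (0.51), with an adjusted p of 1 in edgeR. Sox18, a transcription factor of vessel development, was at 10.95, 11.3, 9.96 and 11.04 CPM against 8.11, 8.26, 7.27 and 8.64. Its groups lay apart with little spread inside either (log2 0.42 ± 0.15).

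The remaining endothelial members had overlapping groups. Robo4, an endothelial Robo receptor, and Egfl7, a secreted endothelial factor, were higher with MSI DNA in all 4 pairs, at log2 0.41 ± 0.16 and 0.33 ± 0.14. Kdr and Flt1, the VEGF receptors, were at 0.13 ± 0.18 and 0.23 ± 0.33, and Eng, a TGF-beta co-receptor, was at 0.12 ± 0.12. The endothelium score was 3.76, 3.91, 3.73 and 3.82 with MSI DNA and 3.70, 3.45, 3.46 and 3.34 with CIN DNA. The 2 micronuclei 1 libraries nearly met, at a difference of 0.06, while the other pairs differed by 0.27 to 0.48. The median was 0.14 in replicate 1 alone, with 13 of 17 above 0, and 0.47 in replicate 2 alone, with 17 of 17. Without the library rich in skeletal muscle transcripts (CIN DNA micronuclei 1) it was 0.38, again with 17 of 17.

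**Figure D2:**
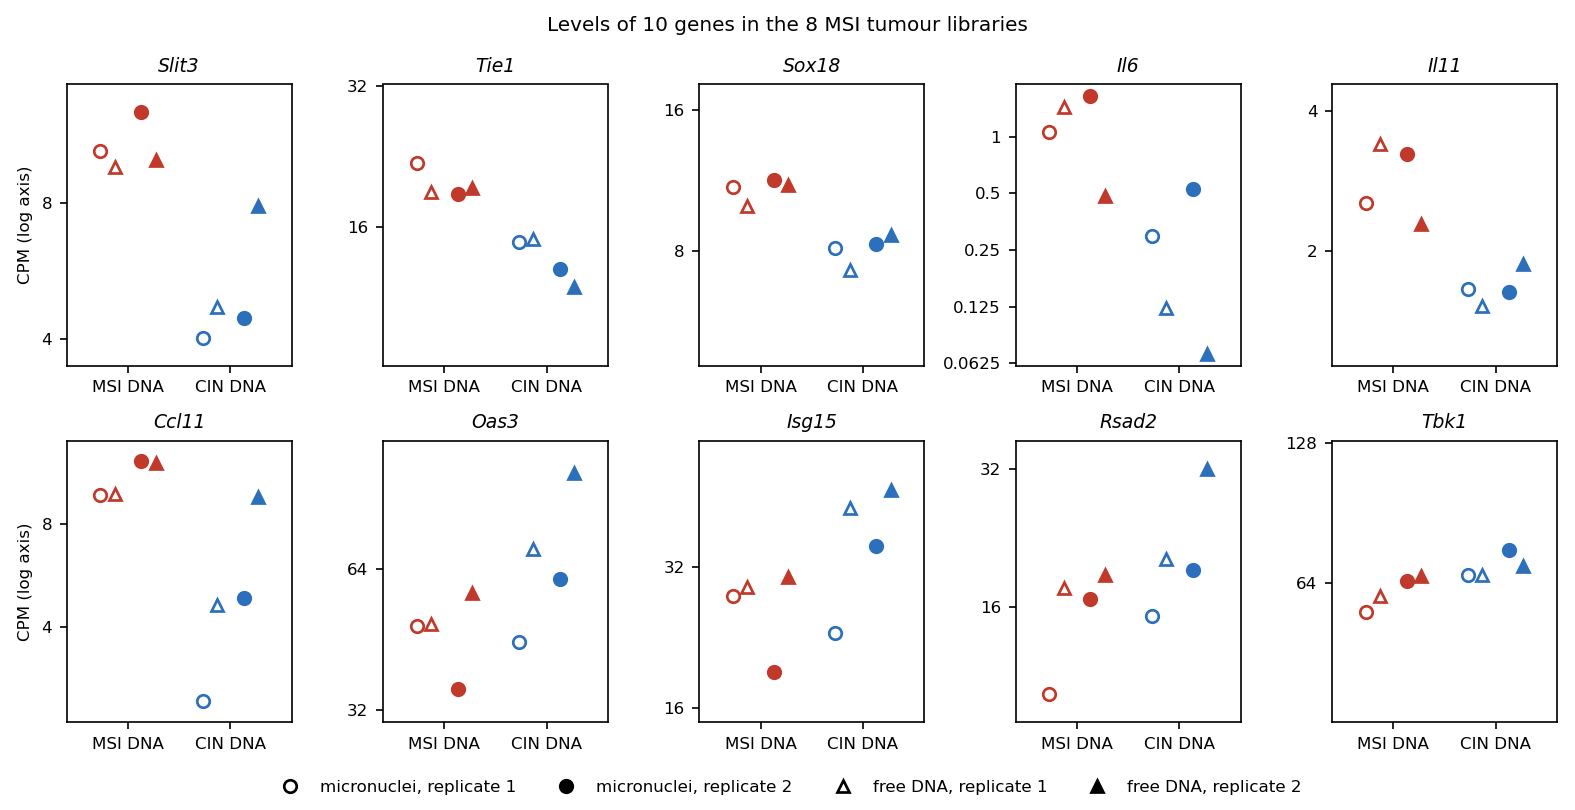
CPM on a log axis for 10 genes in each of the 8 MSI tumour libraries (symbols as in the plot of list scores). Slit3, Tie1, Sox18, Il11, Ccl11 and Tbk1 have groups that do not overlap, while Il6, Oas3, Isg15 and Rsad2 overlap.

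Inflammatory cytokines and chemokines were split, 13 of 27 above and 14 below 0. None was called, and 1 of 27 was separated upwards (0.422% of all genes were). In replicate 1 alone 20 of 26 were above 0 (median 0.35), and in replicate 2 alone 17 of 27 were below (median -0.22). Il6, a cytokine of acute inflammation made by fibroblasts and myeloid cells, was at 1.06, 1.65, 1.44 and 0.486 CPM with MSI DNA and 0.296, 0.524, 0.122 and 0.0697 with CIN DNA. Each MSI DNA library exceeded its matched CIN DNA library, but free DNA 2 lay below CIN DNA micronuclei 2, and the estimate of log2 2.35 ± 0.62 rested on 81 counts in 8 libraries. Il11, an IL-6 family cytokine, was at 2.53, 3.23, 3.39 and 2.29 CPM against 1.66, 1.64, 1.53 and 1.88. Those groups did not overlap (log2 0.77 ± 0.27). Ccl11, the eosinophil attractant eotaxin, was at 9.73, 12.2, 9.81 and 12.1 CPM against 2.43, 4.85, 4.64 and 9.62. The CIN DNA libraries spread widely below the MSI DNA ones (log2 1.10 ± 0.38). In the opposite direction Ccl8, a monocyte attractant, had a log2 value of -0.49. Il1b, made by activated macrophages and neutrophils, was at 0.08 ± 0.24. All adjusted p-values in edgeR were 1.

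Genes of cytosolic DNA sensing had a median fold change near that of all genes. Of 21 tested members 9 were above 0 and 12 below, none was called, and both medians were -0.02. Mb21d1, the files' symbol for the cGAS gene, was at 7.28, 9.30, 9.60 and 7.43 CPM against 10.2, 7.01, 8.24 and 6.90. The libraries interleaved, and the log2 difference of 0.06 had an interval of -0.45 to 0.57. Tmem173, the files' symbol for the STING gene, was at 59.7, 47.4, 70.8 and 54.2 CPM against 60.0, 53.8, 71.7 and 50.3. Its groups also interleaved, with an interval of -0.41 to 0.36. Tbk1, the kinase downstream of STING, was at 55.5, 64.8, 60.1 and 66.4 CPM against 66.9, 75.4, 66.8 and 69.6. All 4 MSI DNA libraries were lower, 1 of 21 members (0.534% of all genes in that direction), by a log2 value of -0.18 ± 0.10 whose interval of -0.42 to 0.07 included 0. Irf3 was at 0.05 with an interval of -0.48 to 0.57.

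Type I interferon response genes lay on the CIN DNA side as a list. Of 36 tested members 34 were below 0 (54.9% of all genes were), none was called, none was separated, and the median was -0.22. Ifnb1, which encodes interferon beta itself, had 1 count in 1 of the 8 libraries and was not tested. Oas3, an enzyme that activates RNase L, was at 48.4, 35.4, 48.9 and 56.9 CPM with MSI DNA and 44.7, 61.2, 70.7 and 103 with CIN DNA. The micronuclei 1 library of CIN DNA lay among the MSI DNA libraries, and the other 3 lay above all of them (log2 -0.52 ± 0.20, unadjusted p = 0.0316, adjusted p = 1 in edgeR). Isg15, a ubiquitin-like modifier, was at 27.7, 19.1, 29.1 and 30.5 CPM against 23.1, 35.5, 42.8 and 46.8. The same CIN DNA library was low again (log2 -0.46 ± 0.19).

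Rsad2, which encodes the antiviral protein viperin, was at 10.3, 16.6, 17.5 and 18.7 CPM with MSI DNA and 15.3, 19.3, 20.3 and 32.1 with CIN DNA. The MSI DNA library was the lower one in all 4 pairs, although the groups overlapped (log2 -0.44 ± 0.22). Stat2 was at 111, 104, 133 and 131 CPM against 113, 135, 152 and 139, also lower in every pair by a small amount (log2 -0.17 ± 0.10). Irf7, the interferon-induced factor that amplifies the response, was at -0.56 ± 0.52, and Ifit2 at -0.01. The interferon score with MSI DNA minus CIN DNA was 0.20 for the micronuclei 1 pair and -0.45, -0.25 and -0.31 for micronuclei 2, free DNA 1 and free DNA 2. The list median was -0.07 in replicate 1 alone, with 23 of 36 below 0, and -0.37 in replicate 2 alone, with 31 of 36 below 0. Without CIN DNA micronuclei 1 it was -0.30, with 33 of 36 below 0. Among the 26 members with a promoter window, those that held GAAANNGAAA had a median of -0.26 (16 of 17 below 0) and those without it -0.25. Members with no window were left out of both medians. Over all tested genes with a window, the medians with and without the motif were -0.04 (294 of 480 below 0) and -0.02.

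**Figure D3:**
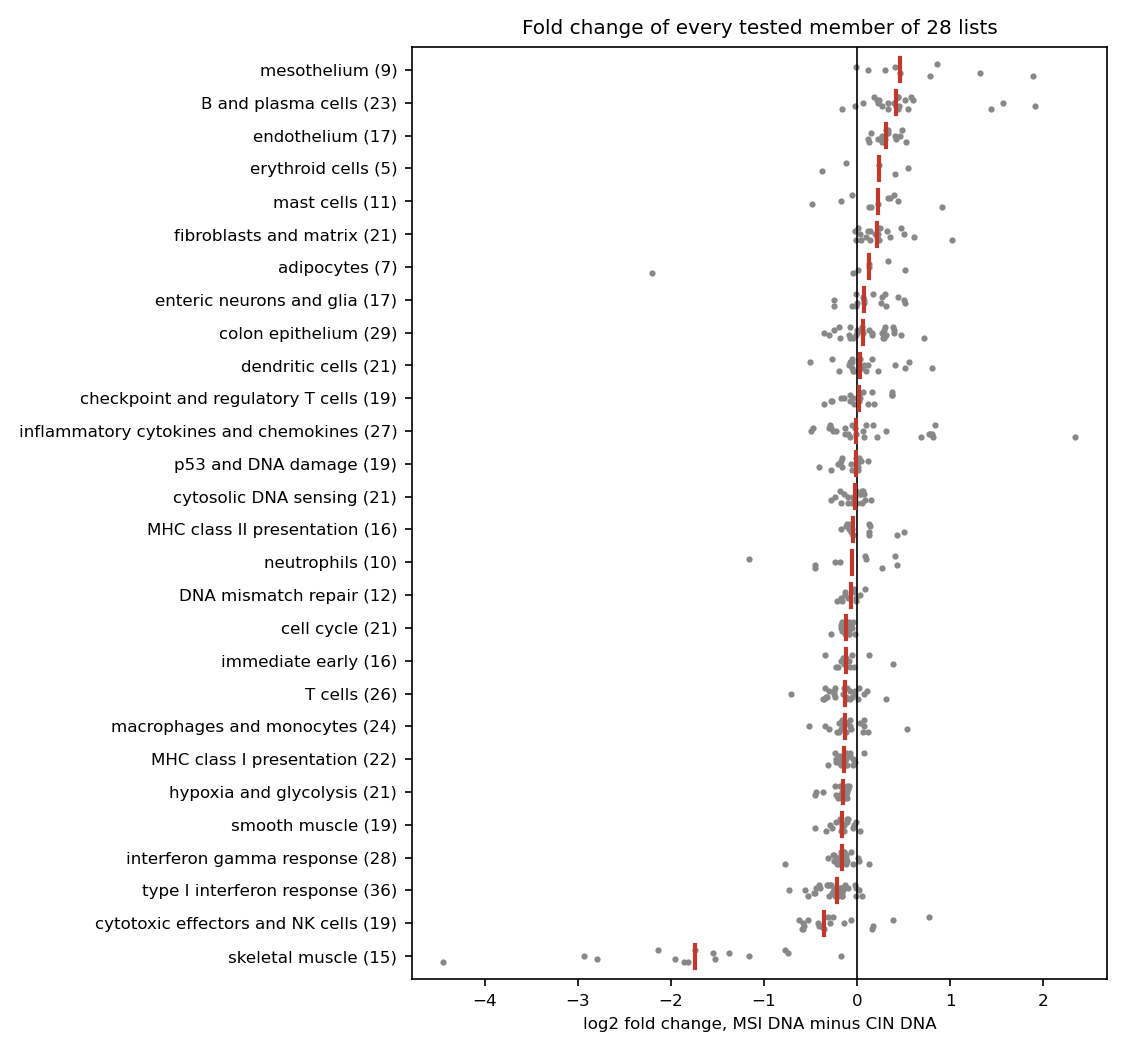
Log2 fold change (MSI DNA minus CIN DNA, horizontal axis) of each tested member of 28 lists as grey points, with the list median as a red bar and the number of tested members in brackets. All 17 endothelial points lie above 0 and 34 of the 36 type I interferon points below it, while the skeletal muscle points reach -4.44.

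Interferon gamma targets and the antigen presentation genes it induces lay on the same side by small amounts. Of 28 interferon gamma response genes 25 were below 0 (median -0.16), and of 22 MHC class I presentation genes 21 were below 0 (median -0.14). None was called and none was separated. In replicate 1 alone these medians were -0.02 and -0.02, with 18 of 28 and 16 of 22 below 0, and in replicate 2 alone -0.30 and -0.28. Leaving out 1 library moved the interferon gamma median between -0.30 (without CIN DNA free DNA 2) and -0.02 (without CIN DNA free DNA 1). Without MSI DNA micronuclei 2 it was -0.05. The MHC class I median moved between -0.24 (without MSI DNA micronuclei 1) and -0.07 (without MSI DNA micronuclei 2). For micronuclei 1, micronuclei 2, free DNA 1 and free DNA 2, the interferon gamma score differences were 0.08, -0.59, -0.10 and -0.01. Those of MHC class I were 0.13, -0.38, -0.16 and -0.11. In both lists the micronuclei 2 pair differed most. Irf1, an interferon-induced transcription factor, was at 308, 219, 300 and 292 CPM with MSI DNA and 274, 362, 359 and 336 with CIN DNA. CIN DNA micronuclei 1 again lay among the MSI DNA libraries (log2 -0.25 ± 0.15). H2-K1, a classical MHC class I heavy chain, was at 2018, 1507, 1798 and 1848 CPM against 1751, 2022, 2175 and 2364. Those values overlapped (log2 -0.21, interval -0.51 to 0.10). The T cell attractants Cxcl9 and Cxcl10 were at -0.14 ± 0.23 and -0.22 ± 0.30. The MHC class II list was split, with 6 above and 10 below 0, and H2-Ab1 was at -0.05 ± 0.14. With micronuclei 12 of its 16 members were below 0 (median -0.17), and with free DNA 4 were (median 0.16). Its median was 0.07 in replicate 1 alone (14 above and 2 below 0) and -0.16 in replicate 2 alone (5 above and 11 below 0).

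Cytotoxic lymphocyte transcripts were lower with MSI DNA for most members, again without a call. Of 19 tested members 15 were below 0, with a median of -0.35, and of 26 T cell genes 21 were below 0, with a median of -0.13. The cytotoxic median was -0.59 with micronuclei and -0.13 with free DNA (11 of 19 below 0), and it was -0.10 in replicate 1 alone and -0.47 in replicate 2 alone. The T cell median was -0.38 with micronuclei (23 of 26 below 0) and 0.03 with free DNA (10 of 26 below 0), and it was -0.01 in replicate 1 alone and -0.28 in replicate 2 alone. It ran from -0.26 without MSI DNA free DNA 1 to -0.06 without MSI DNA micronuclei 2. The difference between the forms was not called for any member. Nkg7, a protein of cytotoxic granules, was at 9.48, 5.14, 14.6 and 8.82 CPM against 14.4, 13.7, 14.7 and 12.6. Its CIN DNA libraries were close together and MSI DNA free DNA 1 was level with them (log2 -0.58 ± 0.29). Ifng, the interferon gamma gene, was at 2.21, 1.19, 4.62 and 2.43 CPM against 4.50, 3.74, 3.79 and 4.74. MSI DNA free DNA 1 was again the exception among 4 pairs (log2 -0.77 ± 0.38). Cd8a, the CD8 co-receptor, was at 21.9, 12.9, 26.5 and 24.7 CPM against 23.9, 22.4, 25.0 and 29.3. Only the low value of MSI DNA micronuclei 2 stood apart from the others (log2 -0.25, interval -0.70 to 0.20). Gzmb, a granzyme of killer cells, was lower in all 4 pairs at -0.35 ± 0.32.

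Dendritic cell genes, the cell type that was injected, were split, 11 of 21 above and 10 below 0, with a median of 0.03. With micronuclei 14 of 21 were below 0 (median -0.14), and with free DNA 5 of 21 were (median 0.225). In replicate 1 alone 14 were above and 6 below 0 (median 0.16). In replicate 2 alone 7 were above and 14 below 0 (median -0.12). Itgax, which encodes CD11c, was at 22.2, 20.97, 35.4 and 27.9 CPM with MSI DNA and 19.1, 22.7, 26.8 and 20.97 with CIN DNA. The 2 groups overlapped (log2 0.23 ± 0.16). Batf3, Xcr1 and Clec9a, genes of the cross-presenting subset, were at 0.51 ± 0.41, -0.51 ± 0.51 and 0.16 ± 0.31. Of 24 macrophage and monocyte genes 18 were below 0 (median -0.13), but without CIN DNA micronuclei 1 the median was 0.05 with 16 of 24 above 0, and without CIN DNA free DNA 1 it was 0.0032. The checkpoint and regulatory T cell list was split, 10 above and 9 below 0, with Cd274, the PD-L1 gene, at -0.17 ± 0.19 and Pdcd1, the PD-1 gene, at 0.18 ± 0.31. Of 23 B and plasma cell genes 21 were above 0 (median 0.42), with Ighg2b, an IgG2b heavy chain gene, at 4.58, 11.5, 18.4 and 11.7 CPM against 2.43, 6.16, 1.89 and 5.78. It was higher with MSI DNA in each pair (log2 1.44 ± 0.55). The B and plasma cell median was 1.41 in replicate 1 and -0.07 in replicate 2, and 0.08 without CIN DNA micronuclei 1.

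**Figure D4:**
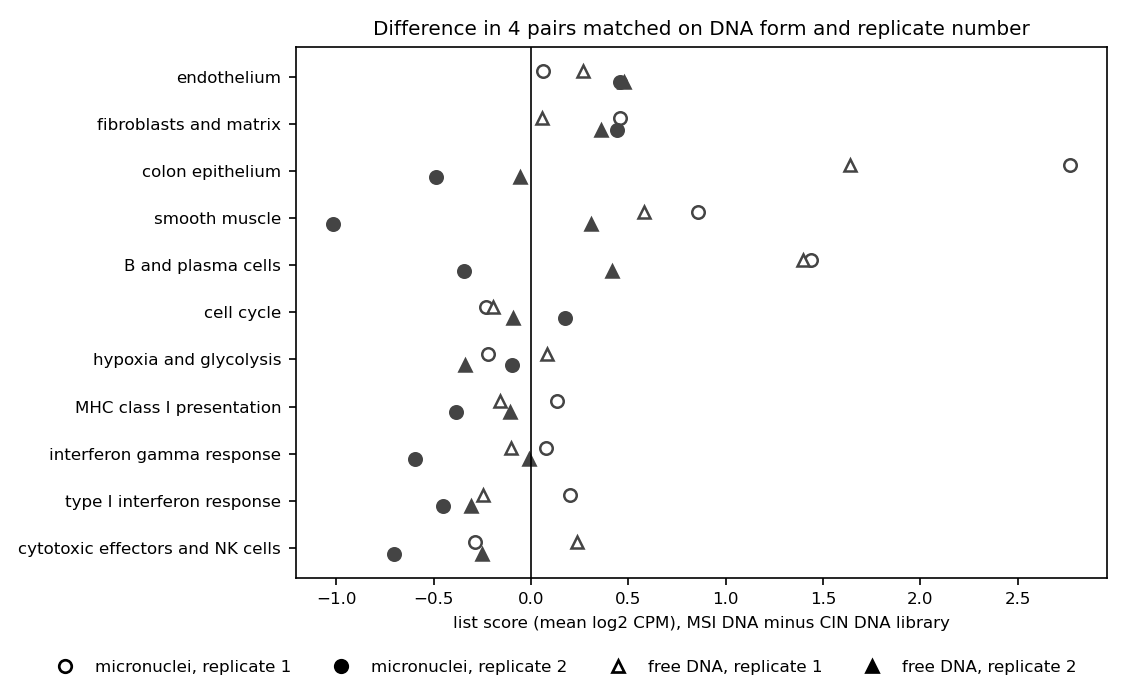
Difference of list score (mean log2 CPM, horizontal axis), MSI DNA minus CIN DNA library, in the 4 pairs matched on form and replicate number for 11 lists. The 4 endothelial and the 4 fibroblast differences are all positive, the type I interferon differences are negative in 3 pairs, and the colon epithelium differences are 2.77 and 1.64 in replicate 1 but -0.49 and -0.06 in replicate 2.

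Over all 8 libraries, growth and metabolism genes lay slightly below 0 together. All 21 hypoxia and glycolysis genes and all 21 cell cycle genes were below 0 (54.9% of all genes were). The medians were -0.15 and -0.11, and no member was called or separated. Several glycolysis genes, Gapdh among them, have near-identical pseudogenes that can take their reads. Pdk1, the kinase that limits entry of pyruvate into mitochondria, was at 88.1, 93.4, 95.6 and 98.8 CPM against 115, 109, 96.5 and 112. The lowest CIN DNA value fell between the MSI DNA values (log2 -0.20 ± 0.10). Without CIN DNA micronuclei 1 the cell cycle median was 0.02 with 14 of 21 above 0, and the hypoxia median was -0.09 with 16 of 21 below 0. Without CIN DNA free DNA 1 the cell cycle median was 0.01 with 13 of 21 above 0. It was -0.25 in replicate 1 alone (20 of 21 below 0) and 0.04 in replicate 2 alone (13 of 21 above 0). The hypoxia median was -0.09 and -0.16 in these subsets. The mismatch repair list, of interest because microsatellite instability follows loss of that pathway, had 10 of 12 members below 0 (median -0.06), but its median was 0.05 without CIN DNA micronuclei 1, with 7 of 12 above 0, 0.05 without CIN DNA free DNA 1 and 0.08 in replicate 2 alone. The skeletal muscle list was set by 1 library: Acta1, skeletal actin, was at 203 CPM in CIN DNA micronuclei 1 and at 0.733 to 15.9 in the other 7. The list median was -1.74 with that library and 0.54 without it.

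The genes named for lying lower with MSI DNA had small differences and mixed functions. Rsph3a, a cilium radial spoke component, was at 17.3, 15.6, 13.3 and 16.8 CPM against 19.5, 28.8, 26.1 and 18.9. Its CIN DNA spread was wide (log2 -0.57 ± 0.19). Tinf2, a telomere shelterin subunit, was at 31.7, 32.5, 34.2 and 31.8 CPM against 36.2, 37.8, 36.1 and 40.3. The groups were tight and close (log2 -0.21 ± 0.10). The other 10 were Alg12, Apol7a, Mis18a, E4f1, Slc12a5, Gins4, Med19, Sgk3, Nat6 and Dpm1, among them a mannosyltransferase of protein glycosylation (Alg12), a GINS subunit of the replication helicase (Gins4) and a Mediator subunit (Med19). Of the genes named as higher, those not described above were Ptprk, Gm340, Napb, Mcemp1, Dchs1 and Kif5c. Ptprk, a receptor tyrosine phosphatase, was at 154, 179, 187 and 160 CPM against 147, 126, 128 and 140, separated by a small margin (log2 0.33 ± 0.11).

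Outside the naming rule, and chosen after its values were seen, the pseudogene Ces2d-ps of the carboxylesterase 2 family was at 4.82, 12.5, 6.13 and 3.12 CPM with MSI DNA and 0, 0.590, 0 and 0.139 with CIN DNA. The groups lay far apart, and it was the 1 gene DESeq2 called for DNA source (log2 5.39, DESeq2 adjusted p = 0.000349), while edgeR gave an unadjusted p of 0.00148 and an adjusted p of 1. Reads of related carboxylesterase genes could be counted to it. With micronuclei, DESeq2 called Ms4a4b, a membrane protein gene of T and NK cells, at log2 -1.17 (DESeq2 adjusted p = 0.0178), with 8.26 and 7.06 CPM against 17.2 and 17.2. The other call was the muscle gene Myh1, at 67.2 CPM in CIN DNA micronuclei 1 and at 0 in the other 3 micronuclei libraries. With free DNA, DESeq2 called Rpl17-ps10 at -1.43 (DESeq2 adjusted p = 4.98e-05), at 95.7 and 89.9 CPM against 252 and 250. Its parent gene Rpl17 went the other way, at 362 and 357 CPM against 188 and 184, and reads of this near-identical pair may be divided between the copies, so neither value is certain. For the difference between the forms, DESeq2 called Rpl17-ps10 and Myh1.

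The effect of DNA source was also compared between library numbers, after the difference in colon epithelium had been seen. In replicate 1 alone, 698 of 17401 genes were called (4.01%), 664 higher and 34 lower with MSI DNA, with 1 residual degree of freedom. In replicate 2 alone, 4 of 18136 were called (0.0221%), with 1 residual degree of freedom. The source effect in replicate 2 minus that in replicate 1 was called for 466 of 17783 genes (2.62%), 465 of them negative, with edgeR's smallest adjusted p at 0.0234. This count rested on the micronuclei libraries: it was 0 without MSI DNA micronuclei 1, 0 without CIN DNA micronuclei 1, 1 without CIN DNA micronuclei 2, 89 without MSI DNA micronuclei 2, and 424 to 1533 without each free DNA library. Of the 664 genes higher in replicate 1, 377 (56.8%) were among the 465 (81.1% of those), a pair of counts that share libraries.

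Colon epithelium genes were the main named group in that difference. Of 29 tested members 20 were called (69%), all negative, against 2.62% of all genes. Zg16, a goblet cell lectin, was at 420 and 393 CPM (micronuclei 1, free DNA 1) with MSI DNA against 45.8 and 85.9 with CIN DNA in replicate 1. In replicate 2 it was at 586 and 975 CPM against 726 and 1074, so only the replicate 1 libraries were apart. The difference of the log2 source effects was -2.94 for Zg16, -3.12 for Phgr1, which is expressed in gut epithelium, and -2.53 for Epcam. The most negative values of protein-coding genes, at a mean log2 CPM no lower than 1, belonged to Rab17, a trafficking GTPase of epithelial cells (-3.61 ± 0.66), Gstm3, a glutathione transferase (-3.53 ± 0.45), and Mpzl2, an epithelial adhesion molecule (-3.53 ± 0.64). Thbs2, a matrix thrombospondin, was the 1 positive call (1.41 ± 0.28). The colon epithelium score in replicate 1 was 6.83 and 6.74 with MSI DNA and 4.07 and 5.10 with CIN DNA, and in replicate 2 it was 7.94 and 8.48 against 8.43 and 8.54. Its part in the count was not tested. No interferon, T cell or endothelial list member was called in this difference.

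**Figure D5:**
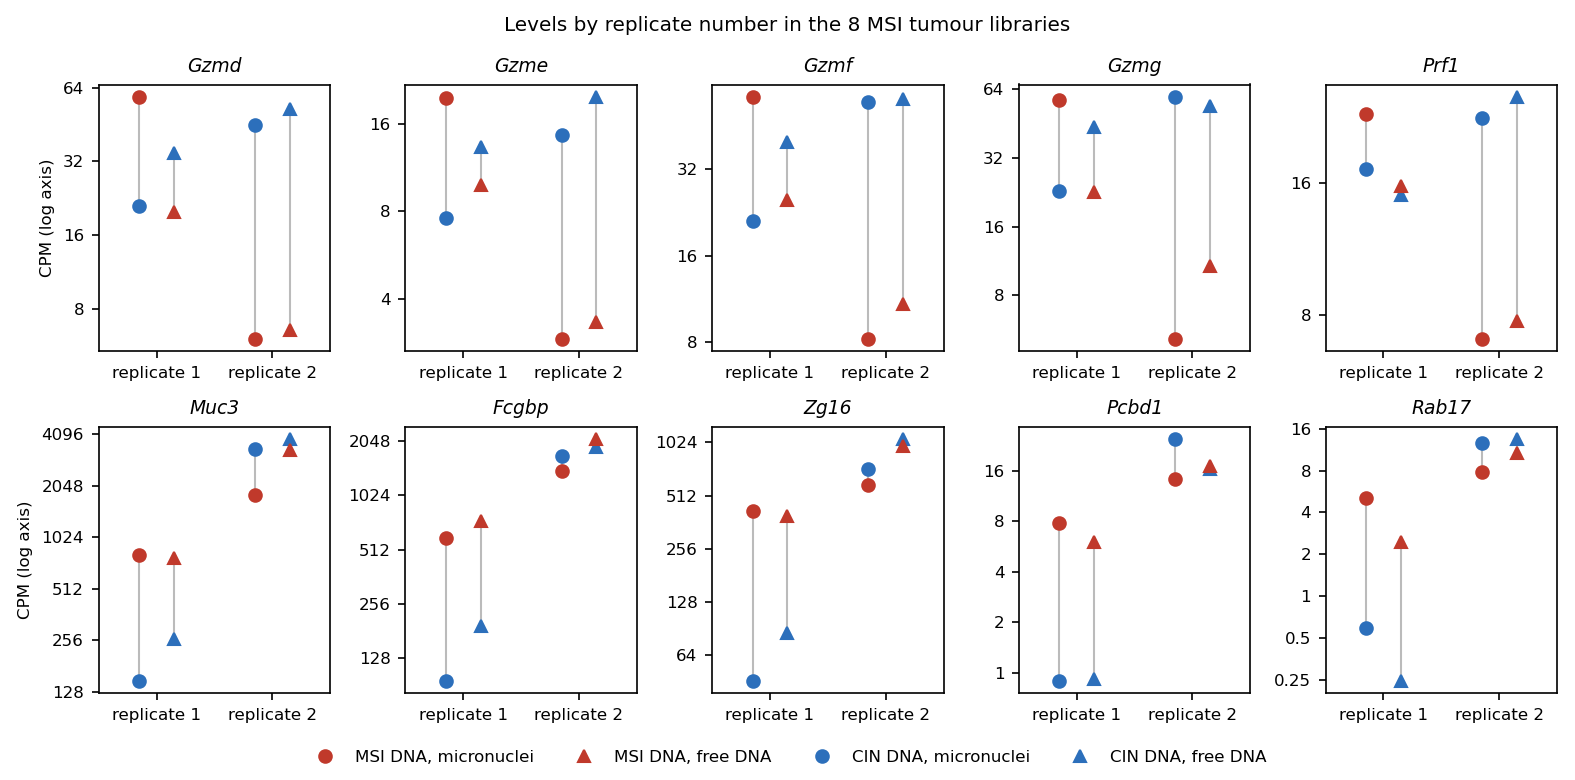
CPM on a log axis for 10 genes by replicate number, with a grey line joining the MSI DNA (red) and CIN DNA (blue) library of the same form (circles micronuclei, triangles free DNA). The granzyme and perforin genes in the top row are lower with MSI DNA in both replicate 2 pairs, and the epithelial genes in the bottom row are higher with MSI DNA in both replicate 1 pairs.

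In replicate 2 the protein-coding calls were 3 neighbouring granzyme genes, which encode serine proteases of cytotoxic granules. Gzmd was at 6.00 and 6.53 CPM (micronuclei 2, free DNA 2) with MSI DNA against 45.2 and 52.3 with CIN DNA, a log2 difference of -2.94 ± 0.27 (edgeR adjusted p = 0.00301). In replicate 1 it was at 58.9 and 19.8 CPM against 20.9 and 34.8, with no common direction. Gzmg (-2.89 ± 0.31) and Gzmf (-2.54 ± 0.26) were the other 2 of these calls, and Ces2d-ps was the fourth gene, higher with MSI DNA. Over both replicates the source effect of Gzmd was -0.87 ± 0.80 and was not called. The gene family is near-identical in sequence, so reads may be divided among its members.

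Perforin is the pore-forming partner of granzymes. Its gene Prf1 was at 7.06 and 7.77 CPM with MSI DNA against 22.6 and 25.2 with CIN DNA in replicate 2, and at 23.1 and 15.8 against 17.3 and 15.0 in replicate 1. The difference between replicates was called for Prf1 (-1.95 ± 0.32, edgeR adjusted p = 0.0334). This was 1 of 19 cytotoxic list genes (5.26%), against 2.62% of all genes, so the list as a whole did not stand out. The difference was also called for Gzme (-2.99 ± 0.58, edgeR adjusted p = 0.0424). It was not called for the 3 genes called in replicate 2 alone, Gzmd (-3.42 ± 0.71, adjusted p = 0.0583), Gzmf (-2.99 ± 0.62, adjusted p = 0.0566) and Gzmg (-3.14 ± 0.78, adjusted p = 0.1). Nor was it called for Gzmb (-0.63 ± 0.38, adjusted p = 0.493) or Gzma (-0.95 ± 0.80, adjusted p = 0.628). The other list members called in it were Pycard, Cd24a, Ighm, Pparg, Krt7, Krt19, Hk2, Btg2 and Junb, with values from -2.54 for Krt19 to -0.83 for Junb.

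The source effect was also compared with that in CIN tumours given the same DNA. The edgeR test of the difference over all 16 libraries called 0 of 18777 genes (0%), with 285 at an unadjusted p under 0.05, and DESeq2 called 2, Epha3 and Scgb2b15. In the fit to 16 libraries the endothelial median was 0.27 in MSI tumours and -0.26 in CIN tumours, but the members' differences did not pass the test (Tie1 unadjusted p = 0.0131, adjusted p = 1 in edgeR). Slit3 was at -0.67 in CIN tumours (unadjusted p of the difference 0.00182, adjusted p = 1 in edgeR). The type I interferon median in that fit was -0.24 in MSI tumours and -0.26 in CIN tumours. No member of that list was called for the difference between tumour types. Whether the 2 medians share a cause was not tested.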

How the data were processed

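Poly-A RNA of 16 tumour libraries was sequenced. The authors deposited counts per gene, made with fastp, HISAT2 2.0.5 and featureCounts 1.5.0-p3, per the submitters' processing notes. Those notes name build GRCm39, but of 54495 identifiers also in GENCODE M21, 53585 matched it in start and end, so positions are given on GRCm38. Use of strand in counting: not given in the sources used here. Reads of overlapping or near-identical genes could be divided wrongly. The table held 54532 genes; 4 of its columns matched no sample and were not used.

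These deposited counts were analysed in R 4.3.3 with edgeR 4.0.16 (TMM, filterByExpr, robust quasi-likelihood, form plus source, Benjamini-Hochberg, threshold 0.05) fitted to the 8 MSI tumour libraries (common biological coefficient of variation 0.465, 5 residual degrees of freedom). The effects within a form and the interaction came from 4 group means, and the difference between tumour types from all 16 libraries. Levels are CPM with TMM factors, not divided by gene length. In edgeR fits the SE was back-calculated, as the absolute log2 fold change divided by the square root of the quasi-likelihood F statistic. Intervals use this SE. Fits were tested on simulated data. Alternatives used DESeq2 1.42.0, other scaling, filters, tissue covariates, a replicate block and leaving out each library.

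The 2 libraries of each group differed by more than counting noise (chi-square per degree of freedom 30.6 to 227). Deviations of equally numbered libraries from their group means correlated in all 6 pairs of groups (r = 0.438 to 0.827 across genes, threshold 0.1), so the numbers were taken to pair the libraries from the data, the labels giving no shared litter or day.

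The comparison, the 28 gene lists (566 of 568 genes found) and 34 fixed genes were chosen with earlier results of these data known. Named genes were called genes or, failing these, the 12 per direction with separated groups and smallest p, the 2 members of smallest p of each list, and the fixed genes. Lists are described by counts and medians, with no list test.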

Additional observations from a re-analysis of the deposited data

Results flagged for a closer look

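Within the 4 libraries of a source, a sample far from the others was looked for by Dixon's criterion at the 95% level in 266 sets of values, and 14 (5.26%) were marked, close to the 1 in 20 that chance gives. With MSI DNA, free DNA 2 was low for Slc12a5 (0.763 CPM, the others 1.78 to 2.04) and Eda2r (3.12 CPM, the others 8.01 to 9.04) and in the hypoxia and glycolysis score (6.90, the others 6.98 to 6.99). MSI DNA micronuclei 2 was low for Irf1 (219 CPM, the others 292 to 308) and in the MHC class I score (7.41, the others 7.71 to 7.75). MSI DNA free DNA 1 was high for Clec9a (3.10 CPM, the others 1.67 to 1.85) and in the macrophage and monocyte score (5.63, the others 5.43 to 5.45) and the cytokine score (3.32, the others 3.04 to 3.07).

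With CIN DNA, micronuclei 1 was high for Actn3 (34.0 CPM, the others 0.209 to 0.305), Tpsab1 (0.888 CPM, the others 0.393 to 0.427), the skeletal muscle score (5.43, the others -0.09 to 0.64) and the adipocyte score (2.58, the others 1.65 to 1.80). CIN DNA free DNA 1 was high for Sgk3 (12.2 CPM, the others 9.27 to 9.59), and CIN DNA micronuclei 2 for H2-DMb2 (15.7 CPM, the others 5.86 to 6.69). The difference of the source effect between replicate 2 and replicate 1 libraries was called for 466 genes. That comparison was chosen after the data were seen, and its count rested on the micronuclei libraries, as given above.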

How the results depend on the processing

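The count of 0 called genes held under each alternative in edgeR, other than those named next, for the source effect, the effect within each form, the interaction and the tumour difference, with the replicate block (0 in all 5, with 248, 234, 226, 258 and 427 unadjusted) and without each library (0 to 0). DESeq2 called 1, 2, 1, 2 and 2 genes. A colon epithelium covariate kept the source effect at 0 called, but 1506 genes had an unadjusted p under 0.05 in edgeR, against 97 in the main fit. With a skeletal muscle covariate that unadjusted count was 60. The unadjusted count thus depended on how tissue content was modelled. For the source effect, replicate 1 libraries alone gave 698 and replicate 2 libraries alone 4, both chosen after seeing the data. The difference between replicate numbers, 466 genes, was 433 with DESeq2's size factors, 1063 in DESeq2, 752 with no filter, and 0 to 1533 without each library. Most values of the 103 named genes moved by less than 1 SE (1984 of 2060), as did most list medians relative to the spread between libraries (541 of 560). Log2 values changed sign and moved by more than 1 SE with replicate 1 alone for Tpsab1 (-0.12), Prf1 (0.25), Zbp1 (0.17), Atf3 (0.0051), Irf7 (0.25), Ifit3 (0.013), Cd163 (-0.12), Cd274 (0.082), Alas2 (-0.17) and Tagln (0.67). With replicate 2 alone they did so for Actn3 (0.75), Upk3b (-0.19), Gata2 (0.10), Upk1b (-0.39), Xcr1 (0.045), Eda2r (0.18), Car3 (1.57), Clec9a (-0.24) and Il1b (-0.22). Car3 ran from -4.39 to 0.74 without each library, and the latter, without CIN DNA micronuclei 1, was the one other such change. A further 40 sign changes, in 18 genes, were smaller than 1 SE (5 with replicate 1 alone, 1 with replicate 2 alone, 29 on leaving out 1 library). Leaving out 1 library turned the sign of 17 of the 28 list medians at least once. The causes were not tested. Over all 20 alternatives the endothelial median stayed between 0.14 and 0.47 and the type I interferon median between -0.37 and -0.07. Depth was low for Il6 (81 counts) and Ifnb1 (1 count).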

Other observations

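Several other tissue lists had medians of opposite sign in the replicate 1 and replicate 2 libraries. The smooth muscle score, which holds genes such as Des and Myh11, was 3.86 to 4.95 in the replicate 1 libraries and 5.89 to 7.13 in replicate 2, and 18 of its 19 members were below 0 with a median of -0.16, against 0.88 in replicate 1 alone and -0.34 in replicate 2 alone. With micronuclei all 19 were below 0 (median -0.68) and with free DNA none was (median 0.30), while leaving out 1 library moved the median between -1.15 (without MSI DNA free DNA 2) and 0.75 (without CIN DNA micronuclei 2). Of 17 enteric neuron and glia genes 12 were above 0 (median 0.08), and the median was 1.53 in replicate 1 alone and -0.15 in replicate 2 alone. Of 9 mesothelium genes 8 were above 0 (median 0.46), with 2.23 and -0.28 in the same subsets. Krt19 and Krt7, keratins that epithelial cells also express, were called in the difference between replicate numbers (-2.54 and -2.48). The mast cell list had 8 of 11 members above 0 (median 0.23). Tpsab1, a mast cell tryptase, was at 0.92 ± 0.53, and Gata2 went the other way at -0.48 ± 0.29. Neutrophil genes were divided 5 and 5 around 0 (median -0.05).

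No stress gene list had a member called between DNA sources. Of 19 p53 and DNA damage genes 12 were below 0 (median -0.01), with Bax, a mediator of apoptosis, at -0.28 ± 0.12. Of 16 immediate early genes 14 were below 0 (median -0.12; 12 of 16 above 0 with 0.15 in replicate 1 alone, 15 of 16 below with -0.26 in replicate 2 alone, and 0.02 without CIN DNA micronuclei 2), with Atf3, a stress-induced transcription factor, at -0.23 ± 0.20. Adipocyte genes had 5 of 7 members above 0 (median 0.13) and erythroid genes 3 of 5 (median 0.23). With micronuclei 6 of 7 adipocyte genes were below 0 (median -0.29), and with free DNA none was (median 0.48). The erythroid median was -0.545 in replicate 1 alone, with 5 of 5 below 0, and 1.33 in replicate 2 alone. No member of the lists in these paragraphs was called for the DNA source over all 8 libraries, where the smallest adjusted p in edgeR's quasi-likelihood test was 1.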
